A study of Mus musculus with 24 samples.

Results

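The genes described here are the 10 that build the MHC class II presentation pathway: H2-Aa, H2-Ab1, H2-Eb1, H2-DMa, H2-DMb1, H2-DMb2, H2-Oa, H2-Ob, Cd74 and Ciita. They were taken by symbol from a deposited table of read counts for 56791 genes, and all 10 passed the filter on low counts in each of the comparisons below. The counts come from bulk RNA sequencing of Tregs (regulatory T cells, a Foxp3-expressing class of CD4 T cell that restrains immune responses) and of B cells. Both were sorted from tumours or lymph nodes of mice carrying B16-F0, a mouse melanoma cell line. Mice labelled KO were Foxp3-Cre Appl2 f/f and mice labelled WT were Foxp3-Cre, which the series title gives as Foxp3-Cre-YFP, so the Cre transgene is common to all groups and only KO mice carry floxed Appl2 alleles. The Appl2 protein is an endosomal adaptor. The Cre is driven by Foxp3, so that B cells are not its intended target. With 3 libraries each, the 8 groups were Tregs and B cells of tumour and of lymph node, each under the KO and the WT label. Nothing in the labels ties the 3 libraries of a group to 3 animals, and p-values therefore measure only the spread between these libraries, which may be technical.

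MHC class II molecules are pairs of an alpha and a beta chain that carry peptides from the endosomal system to the cell surface, where CD4 T cells read them. The invariant chain Cd74 escorts new pairs to endosomes, H2-DM exchanges its remnant for other peptides, and H2-O restrains H2-DM, chiefly in B cells. Ciita is the coactivator that class II promoters require, and it is made by B cells, dendritic cells and, after interferon gamma, macrophages, whereas resting mouse T cells make little of it.

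Appl2, the gene targeted in KO mice, did not follow the labels in every group. It averaged 24.6 ± 3.16 CPM (counts per 1000000, scaled over all 24 libraries; SD, n = 3) in KO-labelled tumour Tregs and 53.7 ± 4.25 CPM in the WT-labelled ones. In lymph node Tregs it averaged 26.2 ± 3.02 CPM under KO and 22.2 ± 3.80 CPM under WT. In B cells it was lower under the KO label, at 15.5 ± 3.05 CPM under KO against 44.8 ± 6.13 CPM under WT in tumour, and 11.3 ± 0.424 CPM under KO against 24.1 ± 2.65 CPM under WT in lymph node. Every direction below therefore follows the labels and not a measured loss of Appl2. Libraries held 6245822 to 16239055 counts, and the 10 genes took 0.0236 to 1.77% of them. The sum over 6 Treg markers was 2643 to 2733 CPM under KO and 3729 to 3833 CPM under WT in tumour Tregs, and 2782 to 2873 CPM under KO and 2441 to 2515 CPM under WT in lymph node Tregs. The B cell groups reached no more than 61.7 CPM on that list and at least 4673 CPM over 14 B cell markers. Within the tumour B cell groups, the chi-square between 2 libraries, averaged over genes, was 8.98 to 9.56 in pairs with KO replicate 1. In pairs with WT replicate 2 it was 6.85 to 7.42. The remaining pair had 3.35 under KO and 3.01 under WT.

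In B cells the pathway was read at high levels in every group, and the peptide-presenting chains led. On the scale of CPM per kilobase of exon, H2-Ab1 was the highest of the 10 genes in tumour B cells, at a level of 3337 ± 33.3 under KO and 2184 ± 242 under WT (SD, n = 3). Cd74 came next at 2658 ± 154 CPM per kilobase under KO and 1900.5 ± 40.2 under WT, then H2-Eb1 at 1467 ± 134 under KO and 902 ± 112 under WT. H2-Aa, whose product pairs with that of H2-Ab1, was far below its partner, at 193 ± 2.95 CPM per kilobase under KO and 147 ± 7.30 under WT. No other annotated gene overlaps the 3798 exon bases counted for H2-Aa, and the cause of the gap was not tested. H2-DMb2, a beta chain of H2-DM, reached 373 ± 12.6 CPM per kilobase under KO and 317 ± 6.68 under WT, and H2-DMb1, its paralog, 88.4 ± 4.73 under KO and 73.0 ± 3.89 under WT. H2-Ob, the beta chain of H2-O, was at 63.6 ± 2.20 CPM per kilobase under KO and 67.9 ± 1.50 under WT, and Ciita at 37.3 ± 2.38 under KO and 36.9 ± 1.65 under WT. The alpha chains closed the order, H2-Oa at 21.2 ± 1.36 CPM per kilobase under KO and 17.6 ± 0.861 under WT, and H2-DMa at 12.9 ± 1.50 under KO and 9.58 ± 0.344 under WT. Lymph node B cells had the same order, except that Ciita stood above H2-Ob in those labelled WT. In tumour Tregs labelled KO the order was H2-Ab1 at 259 ± 8.97 CPM per kilobase, Cd74 at 160.3 ± 4.75, H2-Eb1 at 94.3 ± 3.71 and then H2-DMb1 at 9.48 ± 0.789, which stood above H2-Aa at 7.76 ± 0.364 and H2-DMb2 at 6.59 ± 2.03, the last pair differing by less than the spread of H2-DMb2.

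Of the 10 genes, 8 lie close together on mouse chromosome 17 of GRCm39, in the order H2-Oa (chr17:34311314-34314208), H2-DMa (chr17:34338515-34358075), H2-DMb2 (chr17:34362281-34370529), H2-DMb1 (chr17:34372046-34379204), H2-Ob (chr17:34457877-34473388), H2-Ab1 (chr17:34476663-34488393), H2-Aa (chr17:34501718-34506797) and H2-Eb1 (chr17:34524841-34535648). Ciita lies on chromosome 16 at 10297923 to 10346282, and Cd74 on a further chromosome. H2-Aa is on the minus strand and the other 9 are on the plus strand. Exons of genes on the opposite strand cover 22.8% of the exon bases of H2-Oa (BC051537), 10.4% of those of H2-DMa (Brd2) and 3.45% of those of Ciita (Dexi), and Mir5107 lies within Cd74 on the same strand. No source used here states whether the counting used strand, and reads of H2-Oa and H2-DMa cannot be told apart from those of these neighbours there. H2-DMb1 and H2-DMb2 are close paralogs, and how reads that fit both were counted is not given either.

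The promoters of class II genes are known for a shared module of an X box, bound by the RFX complex, and a Y box, bound by NF-Y, on which Ciita is recruited. RefSeq promoter sequence (GRCm38.p6, 250 bases before to 50 after each gene start) was matched by symbol for 7 of the 10 genes. The letters AACNNATGATG (X-like) and TGATTGG (Y-like), chosen after reading these promoters, were searched on both strands. An X-like match lay before a Y-like match on the gene's strand in H2-DMb2, H2-DMb1, H2-Ob and H2-Eb1, which are the only 4 of 32851 promoters (0.0122%) with this pairing. Since the letters were taken from these promoters, that share is fixed by the choice and is no background rate. The X-like letters alone occurred in 0.137% and the Y-like letters in 7.82% of them. H2-Oa and H2-Aa held the Y-like letters only, and neither start listed for H2-DMa held a match, which says only that these letters are not in those windows. The 72 bases around the matches are shown because they hold the shared module, with H2-Oa and H2-Aa beside the 4 complete ones. Capitals mark the X-like and Y-like letters, and each runs 5′ to 3′ on the gene's strand (H2-DMb2 chr17:34145102-34145173, H2-DMb1 chr17:34153073-34153144, H2-Ob chr17:34238791-34238862, H2-Eb1 chr17:34305751-34305822, H2-Oa chr17:34092279-34092350 and, on the minus strand, H2-Aa chr17:34287857-34287928).
H2-DMb2: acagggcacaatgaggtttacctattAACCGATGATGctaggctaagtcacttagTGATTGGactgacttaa
H2-DMb1: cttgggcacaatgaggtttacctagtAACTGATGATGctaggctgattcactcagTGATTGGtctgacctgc
H2-Ob: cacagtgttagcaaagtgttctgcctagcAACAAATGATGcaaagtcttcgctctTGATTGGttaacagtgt
H2-Eb1: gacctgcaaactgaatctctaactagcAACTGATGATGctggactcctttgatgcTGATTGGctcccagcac
H2-Oa: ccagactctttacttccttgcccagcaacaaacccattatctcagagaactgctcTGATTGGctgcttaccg
H2-Aa: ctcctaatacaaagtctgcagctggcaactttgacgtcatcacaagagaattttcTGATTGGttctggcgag
The start of the Y-like letters lay 26 to 29 bases after that of the X-like letters in the 4 genes with both, and no matches overlapped. These matches are a description of the sequence and not of binding, which was not measured.

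**Figure D1:**
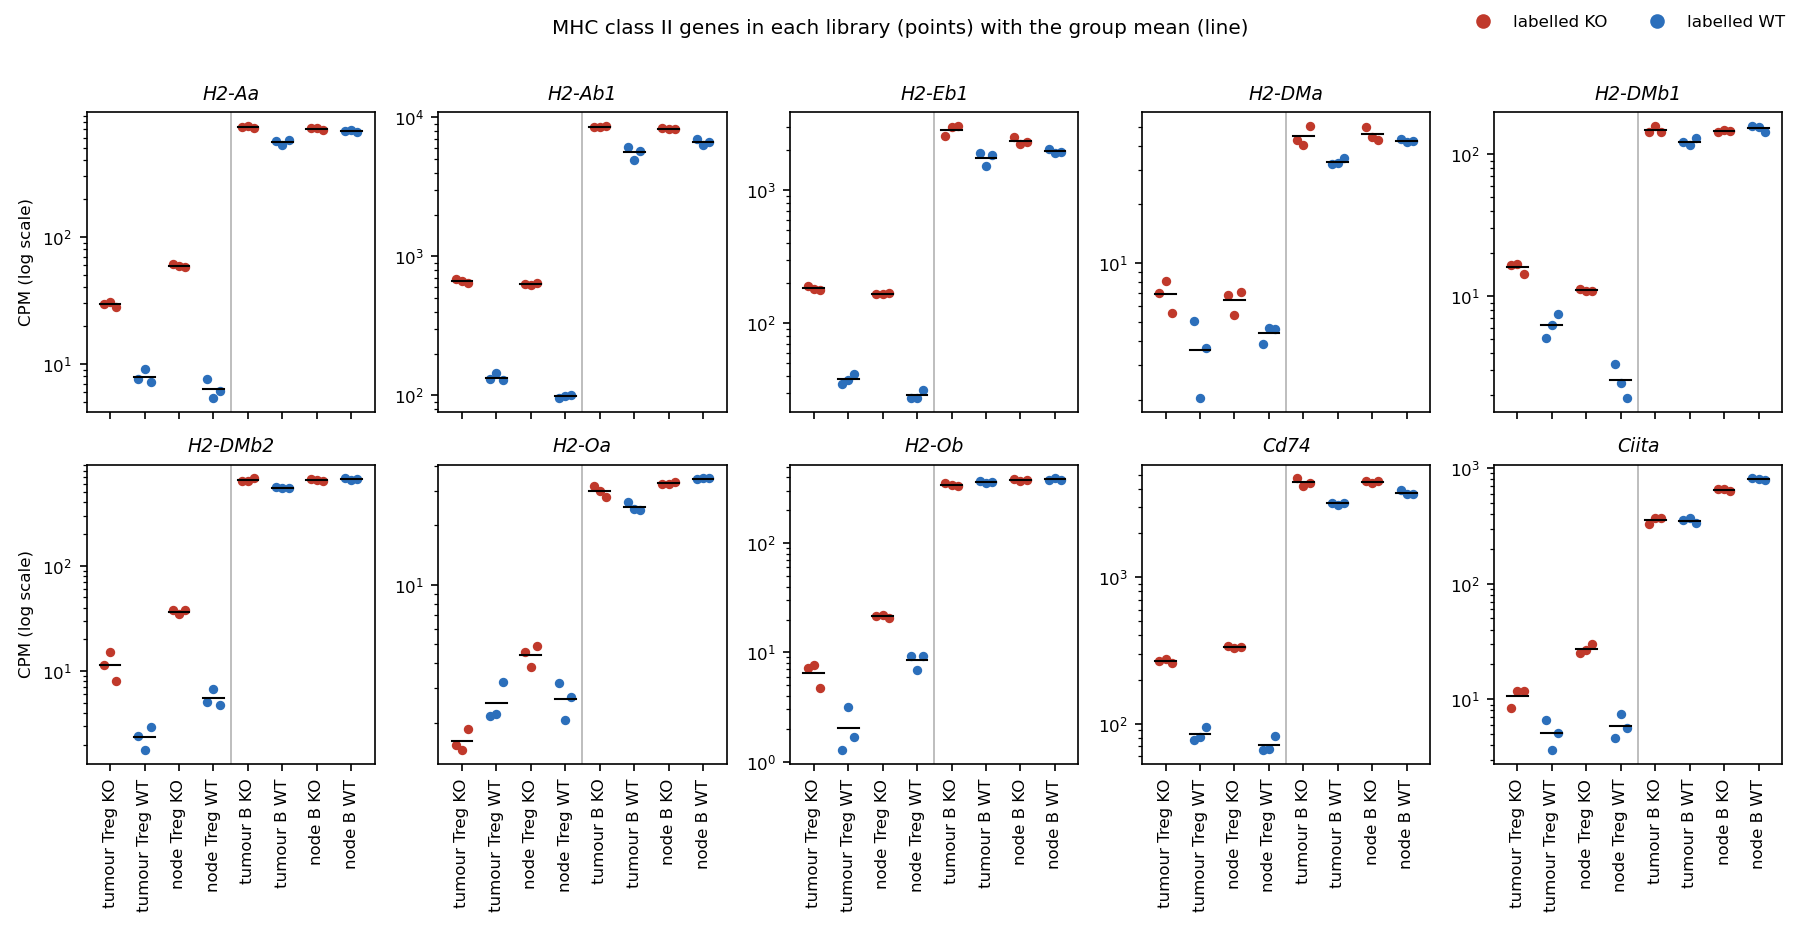
CPM on a log scale (y axis) of each MHC class II gene in each library (points), with the group mean as a line, for tumour and lymph node (node) Tregs and B cells labelled KO and WT (x axis). All 12 B cell libraries lie above all 12 Treg libraries for each gene, and Tregs labelled KO lie above Tregs labelled WT of the same tissue except for H2-Oa in tumour.

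Tumour Tregs labelled KO held more class II RNA than those labelled WT. Of the 10 genes, 9 were higher and 0 lower in tumour Tregs labelled KO, with H2-Oa not called. In this comparison 27.3% of the 14442 genes tested were called higher and 27.2% lower. The median change of the 10 genes was 1.68 on the log2 scale, against -0.02 over all genes tested. H2-Ab1, the beta chain of the I-A molecule, was read at 686, 669 and 640.5 CPM in the libraries labelled KO, against 131, 144 and 128 CPM in those labelled WT. The lowest library labelled KO was far above the highest labelled WT, and the change was 2.31 ± 0.05 (edgeR, adjusted p = 2.26e-30). H2-Aa, the alpha chain of I-A, was at 29.9, 30.6 and 27.9 CPM under KO and 7.57, 9.05 and 7.15 CPM under WT, a change of 1.89 ± 0.14 (edgeR, adjusted p = 2.32e-14). H2-Eb1, the beta chain of I-E, had 191, 182 and 177 CPM under KO and 35.3, 37.7 and 41.4 CPM under WT, a change of 2.27 ± 0.07 (edgeR, adjusted p = 5.21e-26). Its alpha partner H2-Ea was nearly absent from all groups, with group means of 0 to 0.489 CPM.

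Cd74, the invariant chain, had 269.6, 277 and 261 CPM in tumour Tregs labelled KO, against 77.7, 80.8 and 95.3 CPM under WT. These groups did not overlap either, and the change of 1.67 ± 0.06 (edgeR, adjusted p = 2.33e-23) was smaller than that of the I-A and I-E beta chains. The H2-DM genes, whose product edits the bound peptide, were low in Tregs. H2-DMb1 was at 16.7, 16.7 and 14.4 CPM under KO and 5.05, 6.28 and 7.44 CPM under WT, a change of 1.35 ± 0.18 (edgeR, adjusted p = 3.43e-08). H2-DMb2 was at 11.4, 15.1 and 8.04 CPM under KO and 2.43, 1.75 and 2.92 CPM under WT, with a wider spread among the libraries labelled KO, and changed by 2.28 ± 0.26 (edgeR, adjusted p = 9.92e-10). With the reads of both paralogs summed, the change was 1.67 ± 0.15 (edgeR, adjusted p = 7.27e-12). H2-DMa, the alpha chain of H2-DM, had 7.06, 8.14 and 5.57 CPM under KO and 5.05, 2.03 and 3.67 CPM under WT, a change of 0.95 ± 0.27 (edgeR, adjusted p = 0.00351).

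The restraining chain H2-Ob had 7.24, 7.69 and 4.68 CPM under KO and 1.26, 3.14 and 1.69 CPM under WT, a change of 1.68 ± 0.31 (edgeR, adjusted p = 1.93e-05). H2-Oa went the other way, at 1.54, 1.45 and 1.86 CPM under KO and 2.16, 2.22 and 3.20 CPM under WT. These are 16 to 21 and 24 to 34 reads per library, and H2-Oa was not called, at -0.64 ± 0.40 (edgeR, adjusted p = 0.176). In the fit over all 24 libraries it was -0.67 and passed as lower (edgeR, adjusted p = 0.0188). Ciita, the coactivator, was at 8.33, 11.8 and 11.7 CPM under KO and 6.67, 3.60 and 5.08 CPM under WT. The lowest library labelled KO stood above the highest labelled WT, and the change was 1.05 ± 0.22 (edgeR, adjusted p = 0.000101). Ciita has several promoters used by different cell types, and gene totals do not separate them.

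Markers of other cell types moved beside these genes in tumour Tregs. All 11 of the 14 B cell markers that could be tested were higher under KO, with summed levels of 117 to 119 CPM against 40.2 to 47.6 CPM under WT. Cr2, a complement receptor of B cells, was at 0 in all 3 libraries labelled WT. Dendritic cell markers were higher for 7 of the 8 tested (9 listed) and lower for 1, Siglech, with sums of 79.3 to 84.3 CPM under KO and 26.8 to 33.8 CPM under WT. Itgax, which codes for CD11c, averaged 25.6 ± 1.10 CPM under KO and 3.27 ± 0.994 CPM under WT. Macrophage and monocyte markers were higher for 5 of 7 tested (12 listed), with sums of 90.7 to 96.4 CPM under KO and 38.0 to 50.8 CPM under WT, while C1qc was at 0 under KO. Melanoma markers were lower for all 10, at 49.6 to 60.4 CPM under KO and 2779.7 to 2966 CPM under WT, and all 6 Treg markers were lower. CD8 T and NK cell markers were higher for all 5, at 145 to 158 CPM under KO and 22.6 to 27.7 CPM under WT, and plasma cell markers for all 4 tested of 5, at 375 to 389.8 CPM under KO and 111 to 120.3 CPM under WT. Jchain, the joining chain of secreted antibodies, averaged 147 ± 4.90 CPM under KO and 12.3 ± 3.35 CPM under WT. The part of RNA from cells other than B cells in the class II levels was not tested; that of B cells is set out below. In bulk RNA, fewer cells of a type and less RNA per cell cannot be told apart.

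In lymph node Tregs, where Appl2 was not lower under the KO label, all 10 genes were higher in the libraries labelled KO. There 13.8% of the 14613 genes tested were called higher and 11.5% lower, and the median change of the 10 genes was 2.20, against -0.01 over all genes tested. H2-Aa had 61.0, 58.8 and 58.4 CPM under KO and 7.67, 5.37 and 6.09 CPM under WT, and its change of 3.21 ± 0.11 (edgeR, adjusted p = 9.51e-20) was the largest of the 10. H2-Ab1 was at 635, 621 and 644 CPM under KO and 95.4, 98.2 and 101 CPM under WT, a change of 2.67 ± 0.05 (edgeR, adjusted p = 4.43e-26). H2-Eb1 had 165, 166 and 168 CPM under KO and 27.4, 27.6 and 31.7 CPM under WT, a change of 2.51 ± 0.07 (edgeR, adjusted p = 3.64e-22). The libraries of a label lay close together for these chains, and no library labelled WT came near one labelled KO. Cd74 was read at 341, 328 and 333 CPM under KO and 65.5, 67.5 and 82.4 CPM under WT, a change of 2.20 ± 0.06 (edgeR, adjusted p = 2.54e-21). Ciita was at 24.9, 26.9 and 30.3 CPM under KO and 4.58, 7.43 and 5.59 CPM under WT, a change of 2.20 ± 0.15 (edgeR, adjusted p = 6.39e-13).

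H2-DMb2 had 37.6, 34.7 and 37.7 CPM under KO and 5.08, 6.80 and 4.74 CPM under WT, a change of 2.71 ± 0.13 (edgeR, adjusted p = 2.02e-16). H2-DMb1 had 11.3, 10.9 and 11.0 CPM under KO and 3.33, 2.45 and 1.91 CPM under WT, a change of 2.10 ± 0.21 (edgeR, adjusted p = 2.66e-09). H2-Ob was at 21.7, 22.0 and 20.6 CPM under KO and 9.25, 6.95 and 9.21 CPM under WT, a change of 1.32 ± 0.13 (edgeR, adjusted p = 4.19e-09). Neither group overlapped the other for these 3 genes. Both alpha chains that share bases with opposite-strand genes changed least. H2-DMa, at 6.84, 5.40 and 7.10 CPM under KO and 3.83, 4.66 and 4.60 CPM under WT, changed by 0.54 ± 0.20 (edgeR, adjusted p = 0.0493), and H2-Oa, at 4.54, 3.83 and 4.91 CPM under KO and 3.17, 2.05 and 2.69 CPM under WT, by 0.73 ± 0.26 (edgeR, adjusted p = 0.0357). Both calls were fragile. H2-DMa was no longer called without KO replicate 1 or 3, without WT replicate 1, 2 or 3, with upper-quartile scaling, with no filter on low counts, with the replicate block or in DESeq2, at 0.47 to 0.59 with adjusted p of 0.0626 to 0.171. H2-Oa was no longer called without KO replicate 1 or 3, without WT replicate 2 or 3 or in DESeq2, at 0.58 to 0.75 with adjusted p of 0.0533 to 0.138.

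All 14 B cell markers were higher in lymph node Tregs labelled KO, with sums of 388 to 409.6 CPM against 112 to 121 CPM under WT. Of 9 dendritic cell markers 4 of the 7 tested were higher and 0 lower, with sums of 27.3 to 36.0 CPM under KO and 10.4 to 13.7 CPM under WT. Of 12 macrophage and monocyte markers 2 of the 8 tested were higher, with sums of 98.1 to 107 CPM under KO and 40.9 to 44.0 CPM under WT. Most of that difference lay in Lyz2, which averaged 76.3 ± 1.65 CPM under KO and 23.6 ± 0.992 CPM under WT. Stromal and endothelial markers were lower for 5 of 6, at 99.9 to 111 CPM under KO and 214 to 247 CPM under WT.

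**Figure D2:**
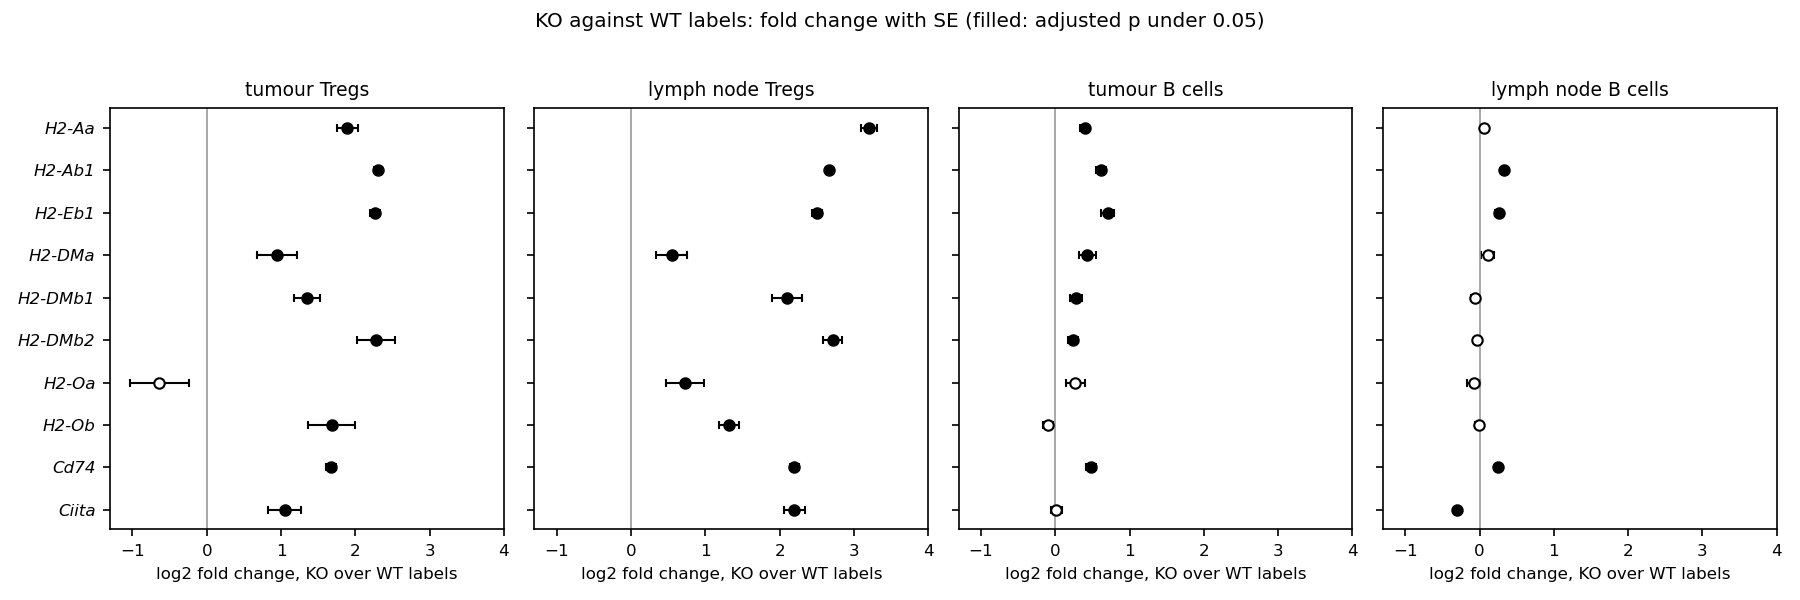
Log2 fold change of KO over WT labels with its standard error (x axis) for each MHC class II gene (rows) in tumour Tregs, lymph node Tregs, tumour B cells and lymph node B cells; filled points passed at an adjusted p under 0.05 and open points did not. Changes in Tregs reach 3.21 for H2-Aa in lymph node, while those in B cells stay within -0.30 and 0.70.

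The difference between labels was itself compared between tumour and lymph node Tregs, by an interaction term over the 12 Treg libraries. It was smaller in tumour for 7 of the 10 genes and larger for 0, where 17.3% of the 15589 genes tested were called lower in tumour and 16.8% higher. H2-Aa differed most firmly, with a tumour minus lymph node difference of -1.32 ± 0.18 (edgeR, adjusted p = 1.40e-07), followed by Cd74 at -0.54 ± 0.09 (edgeR, adjusted p = 1.19e-05), H2-Ab1 at -0.37 ± 0.07 (edgeR, adjusted p = 3.66e-05) and Ciita at -1.16 ± 0.27 (edgeR, adjusted p = 0.000616). H2-Oa differed by -1.38 ± 0.44 (edgeR, adjusted p = 0.0127), H2-DMb1 by -0.76 ± 0.27 (edgeR, adjusted p = 0.0286) and H2-Eb1 by -0.25 ± 0.10 (edgeR, adjusted p = 0.0444). These 3 calls depended on single libraries. Without tumour Treg WT replicate 3, 4 genes were called in place of 7, H2-Oa at -1.18 (edgeR, adjusted p = 0.0511). H2-Eb1 lost its call without tumour Treg KO replicate 2 or 3, tumour Treg WT replicate 2 or 3, any of the 3 lymph node Treg libraries labelled KO or lymph node Treg WT replicate 1 or 2. It also lost it with RLE scaling, no filter, the replicate block, the fit over all 24 libraries or DESeq2, over a range of -0.28 to -0.19 with adjusted p of 0.0517 to 0.168. H2-DMb1 lost its call without tumour Treg KO replicate 3, tumour Treg WT replicate 3, lymph node Treg KO replicate 1 or lymph node Treg WT replicate 2 or 3, and in DESeq2, over -0.75 to -0.58 with adjusted p of 0.052 to 0.127. H2-DMa, H2-DMb2 and H2-Ob were not called, at 0.39 ± 0.35, -0.45 ± 0.29 and 0.35 ± 0.31.

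To see what B cell RNA in the sorted Tregs could bring, the level of each of the 14 B cell markers in a Treg library was divided by its mean level in the B cell libraries of the same tissue and label. The median of these percentages, called the B cell share here, was 1.94, 1.80 and 1.98% in the 3 tumour Treg libraries labelled KO, against 0.158, 0.181 and 0.210% under WT. In lymph node Tregs it was 5.79, 5.34 and 5.23% under KO and 0.996, 1.14 and 1.33% under WT. No library labelled WT reached the lowest labelled KO of its tissue. Single markers varied from 0.347% (Cr2) to 5.08% (Cd72) in tumour Tregs labelled KO and from 0 (Cr2) to 4.80% (Cd72) in those labelled WT. They varied from 4.50% (Pax5) to 10.4% (Cd72) in lymph node Tregs labelled KO and from 0.601% (Cr2) to 6.14% (Ralgps2) in those labelled WT. Each share times the B cell level of a class II gene gives the level that B cell RNA of that make-up would bring, and the observed level is set against it below as a ratio, with no test. The share rests on the choice of markers most in tumour Tregs labelled WT, where it was 0.0718% with 5 core markers and 0.935% with markers weighted by level.

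**Figure D3:**
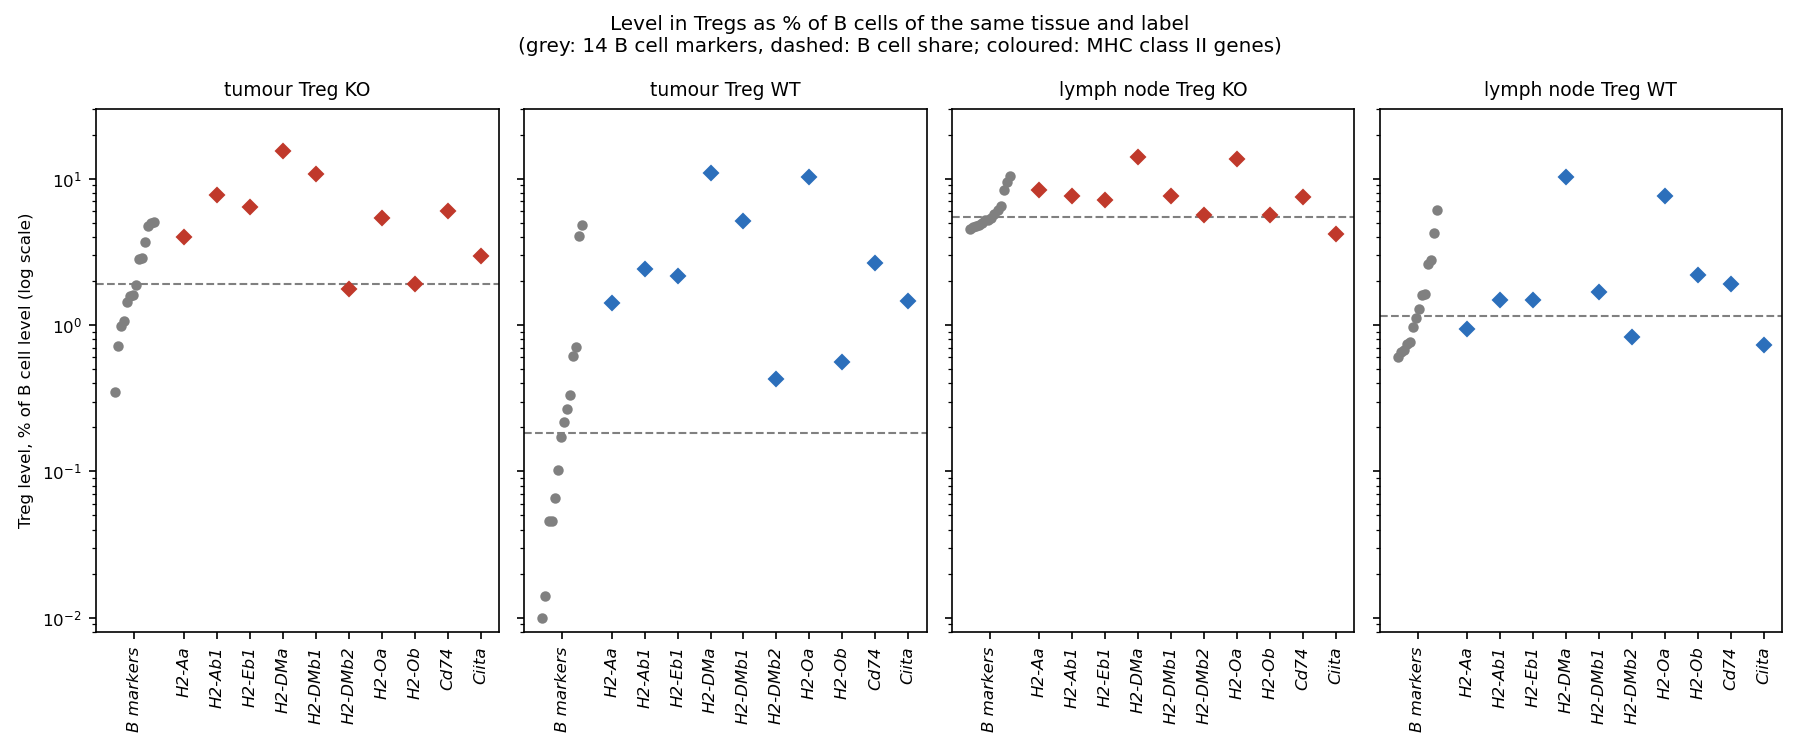
Level in Tregs as a percentage of the level in B cells of the same tissue and label (y axis, log scale) for 14 B cell markers (grey, in ascending order) and the 10 MHC class II genes (coloured), with the B cell share dashed; Cr2, at 0 in tumour Tregs labelled WT, is drawn at 0.01%. In lymph node Tregs labelled KO most class II genes lie among the markers. H2-Ab1, H2-Eb1, Cd74 and H2-DMb1 exceed 11 of the 14 markers there, and H2-Aa exceeds 12. In tumour Tregs labelled KO 6 of the 10 lie above every marker. In tumour Tregs labelled WT 3 of the 10 (H2-DMa, H2-DMb1 and H2-Oa) do, and Cd72 and Ralgps2 are the only markers above 0.711%.

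In tumour Tregs labelled KO, the presenting chains stood above what the B cell share would bring. H2-Ab1 was read at 665 ± 23.0 CPM, where the share would bring 163 ± 8.47 CPM, a ratio of 4.08 ± 0.294 (SD, n = 3). As 7.76% of its B cell level, H2-Ab1 exceeded the percentage of all 14 markers, and so did H2-Eb1 at 6.42% and Cd74 at 6.03%, with ratios of 3.38 ± 0.225 and 3.17 ± 0.260. H2-Aa, at 29.5 ± 1.38 CPM, had a ratio of 2.12 ± 0.203 and exceeded 11 of the 14 markers. H2-DMb1 had 15.9 ± 1.33 CPM, where 2.83 ± 0.147 CPM would be brought, a ratio of 5.65 ± 0.706. H2-DMa and H2-Oa had ratios of 8.21 ± 1.94 and 2.83 ± 0.262. H2-DMb2 and H2-Ob, by contrast, were close to what the share would bring, at 11.5 ± 3.54 CPM observed and 12.4 ± 0.644 CPM brought for H2-DMb2 (ratio 0.938 ± 0.336) and 6.54 ± 1.62 and 6.52 ± 0.338 CPM for H2-Ob (ratio 1.01 ± 0.290). Ciita had a ratio of 1.57 ± 0.328 and exceeded 10 of the 14 markers.

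Tumour Tregs labelled WT had a far smaller B cell share, and all ratios were above 1. H2-Ab1 was at 134 ± 8.55 CPM against 10.3 ± 1.45 CPM brought, Cd74 at 84.6 ± 9.35 against 5.84 ± 0.825 CPM and H2-Aa at 7.93 ± 0.997 against 1.02 ± 0.144 CPM. The lowest ratios were again those of H2-DMb2, at 2.35 ± 0.535, and H2-Ob, at 3.05 ± 1.47. With markers weighted by level the ratios fell to 0.453 for H2-DMb2, 0.611 for H2-Ob and 2.58 for H2-Ab1. That weighting rests mostly on Cd72 and Ralgps2, which had 25.2 and 13.3 CPM of the 44.1 CPM that the 14 markers summed to. These were 4.80 and 4.07% of their B cell levels, and the next marker, Cd79a, was at 0.711%. With the brought level taken away, H2-Ab1 kept 502 ± 27.3 CPM in tumour Tregs labelled KO, against 124 ± 8.96 CPM under WT. Cd74 kept 184 ± 12.2 CPM under KO and 78.8 ± 8.57 CPM under WT. H2-Eb1 kept 129 ± 7.93 CPM under KO and 34.9 ± 2.65 CPM under WT, and H2-Aa 15.5 ± 2.03 CPM under KO and 6.91 ± 1.05 CPM under WT. For these 4 genes the libraries labelled KO lay above all of those labelled WT also after that step. H2-DMb2 came to -0.915 ± 4.16 CPM under KO and 1.36 ± 0.532 CPM under WT, and H2-Ob to 0.0170 ± 1.90 CPM under KO and 1.36 ± 0.973 CPM under WT. Ciita came to 3.83 ± 2.11 CPM under KO and 4.48 ± 1.58 CPM under WT. For these 3 genes the libraries of the labels overlapped, as they did for H2-DMa. H2-DMb1 kept 13.1 ± 1.43 CPM under KO and 6.03 ± 1.16 CPM under WT without overlap, and H2-Oa lay lower under KO without overlap, at 1.04 ± 0.190 CPM under KO and 2.48 ± 0.578 CPM under WT.

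In lymph node Tregs the observed levels of the presenting chains and Cd74 were nearer to those the B cell share would bring. Under KO, H2-Ab1 was at 634 ± 11.8 CPM against 453 ± 24.5 CPM brought, a ratio of 1.40 ± 0.0807. Cd74 had a ratio of 1.37 ± 0.0521, H2-Eb1 of 1.31 ± 0.0800, H2-Aa of 1.54 ± 0.0459 and H2-DMb1 of 1.39 ± 0.0512. Over the other ways of taking the share, these ran from 0.777 (H2-Eb1) to 1.74 (H2-Ab1). H2-DMb2 and H2-Ob stood at 1.03 ± 0.0615 and 1.04 ± 0.0485. As percentages of their B cell levels, H2-Ab1, H2-Eb1, Cd74 and H2-DMb1, at 7.11 to 7.63%, exceeded 11 of the 14 markers. H2-Aa, at 8.37%, exceeded 12, and H2-DMb2 and H2-Ob exceeded 8. Ciita was below the brought level, at 27.4 ± 2.70 CPM against 35.5 ± 1.92 CPM, a ratio of 0.775 ± 0.114, and was a lower percentage of its B cell level than any of the 14 markers. Under WT, H2-Ab1 had a ratio of 1.30 ± 0.147, Cd74 of 1.65 ± 0.0848, H2-Aa of 0.834 ± 0.258, H2-DMb2 of 0.733 ± 0.182, H2-Ob of 1.94 ± 0.429 and Ciita of 0.639 ± 0.155. Over the other ways of taking the share, the ratio under WT ran from 0.815 to 1.63 for H2-Ab1, from 1.04 to 2.08 for Cd74, from 1.21 to 2.36 for H2-Ob and from 0.400 to 1.13 for Ciita, so that H2-Ab1 fell below the brought level with markers weighted by level. After the brought level was taken away, H2-Ab1 kept 181 ± 27.8 CPM under KO and 22.1 ± 8.01 CPM under WT, and Cd74 89.6 ± 8.33 CPM under KO and 28.2 ± 3.89 CPM under WT. H2-Eb1, H2-Aa, H2-DMb1 and H2-DMb2 also lay higher under KO without overlap, the last at 1.09 ± 2.11 CPM under KO and -2.15 ± 1.74 CPM under WT. H2-Ob lay the other way without overlap, at 0.738 ± 0.993 CPM under KO and 4.05 ± 1.42 CPM under WT. Ciita came to -8.11 ± 4.48 CPM under KO and -3.37 ± 1.68 CPM under WT, and its libraries overlapped between labels, as did those of H2-DMa and H2-Oa. These remainders were taken with the median share only. Over the other ways of taking it, the lowest KO ratio was 0.984 for H2-Ab1, 0.996 for Cd74 and 0.777 for H2-Eb1. It was 0.988 for H2-DMb1, 0.748 for H2-DMb2 and 1.08 for H2-Aa. Below 1 nothing remains under KO, so the higher remainder under KO depends on the share for all of these but H2-Aa. H2-DMa and H2-Oa exceeded all 14 markers in every Treg group, with percentages of 10.3 to 15.5% for H2-DMa and 5.41 to 13.6% for H2-Oa, and both share exon bases with a gene on the other strand.

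**Figure D4:**
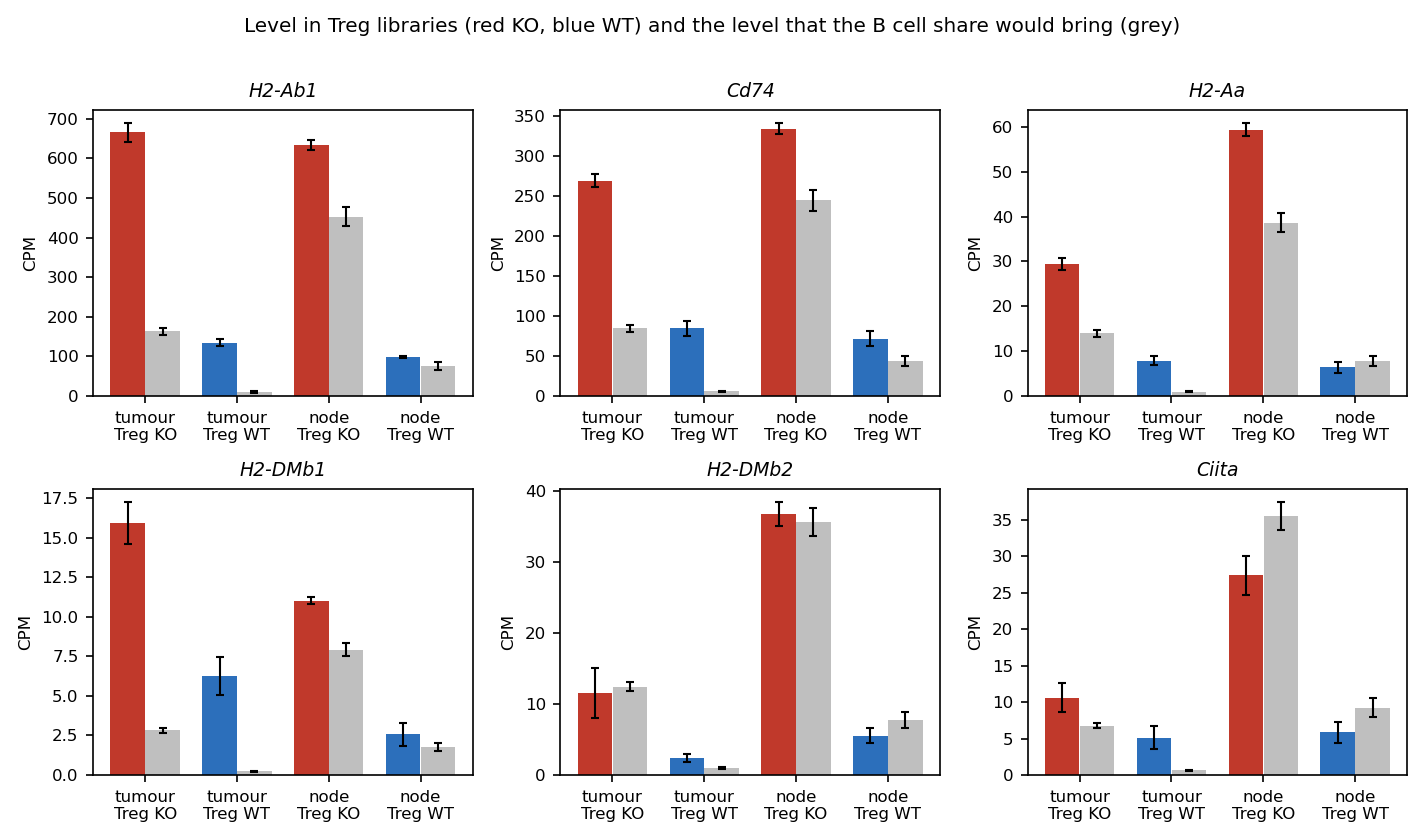
Mean CPM in Treg libraries (y axis; red labelled KO, blue labelled WT) and the mean level that the B cell share would bring (grey), each with its SD over 3 libraries, for 6 class II genes in tumour and lymph node (node) Tregs. The grey bar for H2-Ab1 reaches 163 of 665 CPM in tumour Tregs labelled KO and 453 of 634 CPM in lymph node Tregs labelled KO, and for H2-DMb2 it lies within the SD of the observed bar in both.

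The ratio between the paralogs H2-DMb2 and H2-DMb1 needs no scaling between libraries, and it separated the cell groups. In reads of H2-DMb2 per read of H2-DMb1, tumour Tregs labelled KO had 0.685, 0.903 and 0.558 and those labelled WT 0.482, 0.279 and 0.392. Lymph node Tregs labelled KO had 3.34, 3.19 and 3.44 and those labelled WT 1.52, 2.77 and 2.48. B cells were alike in all 4 groups, at 4.40 ± 0.333 and 4.53 ± 0.292 in tumour and 4.49 ± 0.0994 and 4.41 ± 0.301 in lymph node under KO and WT (SD, n = 3). All 12 Treg libraries were below all 12 B cell libraries, and tumour Tregs were below lymph node Tregs without overlap. H2-Aa per read of H2-Ab1 gave 0.0435, 0.0457 and 0.0436 in tumour Tregs labelled KO and 0.0580, 0.0628 and 0.0558 in those labelled WT, below the 0.0831 to 0.111 of B cell libraries. Lymph node Tregs labelled KO lay within that range, at 0.0960, 0.0946 and 0.0906, and those labelled WT below it, at 0.0803, 0.0547 and 0.0601. Cd74 per read of H2-Ab1 was 0.405 ± 0.0108 under KO and 0.633 ± 0.0968 under WT in tumour Tregs, and 0.528 ± 0.0103 and 0.729 ± 0.0731 in lymph node Tregs labelled KO and WT. H2-Eb1 per read of H2-Ab1 had group means of 0.263 to 0.333.

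**Figure D5:**
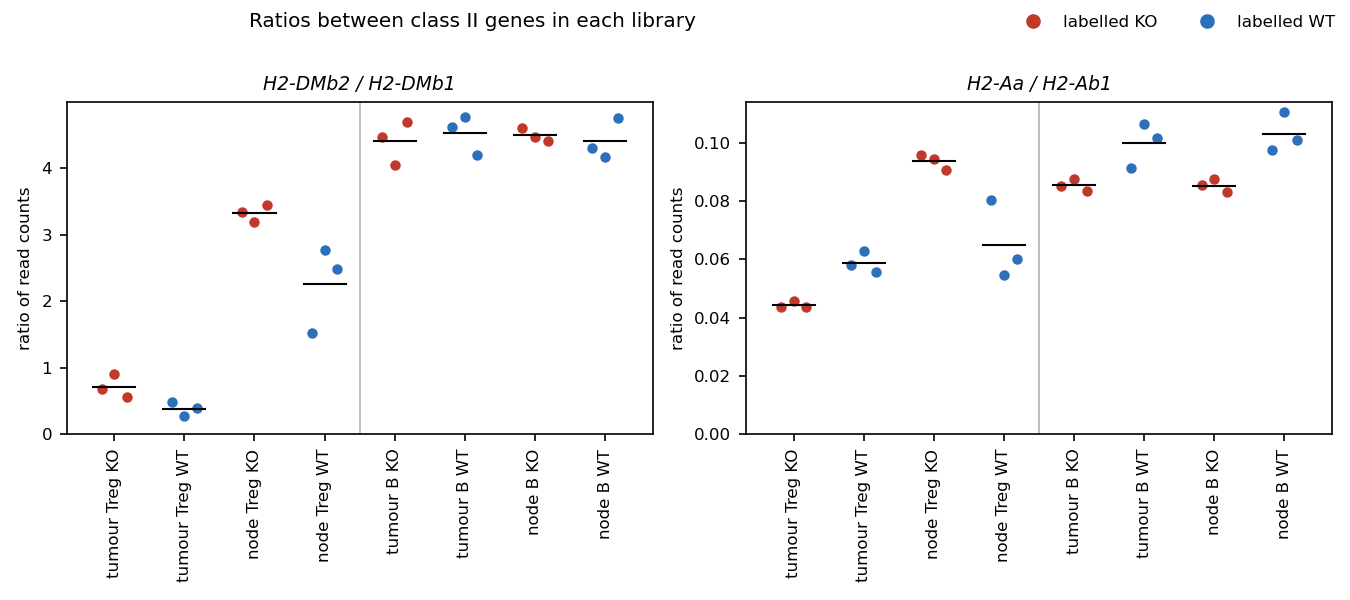
Reads of H2-DMb2 per read of H2-DMb1 (left) and of H2-Aa per read of H2-Ab1 (right) in each library (points, y axis from 0) with the group mean as a line, by group (x axis; node is lymph node). Tumour Tregs are lowest in the left panel, below 1, and B cells sit above 4.

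In tumour B cells, 7 of the 10 genes were higher under the KO label and 0 lower, where 21.3% of the 13483 genes tested were called higher and 18.8% lower. The median change was 0.33, against -0.03 over all genes tested, and without KO replicate 1 and WT replicate 2, which were unlike their partners, 7 were called as well. Of the 14 B cell markers, 6 were higher and 2 lower under KO, with a median change of 0.18. These markers summed to 5029 to 5622 CPM under KO and 4673 to 4781 CPM under WT. H2-Eb1 had 2553, 2971 and 3033 CPM under KO and 1911, 1507 and 1845 CPM under WT, a change of 0.70 ± 0.09 (edgeR, adjusted p = 2.59e-05). H2-Ab1 was at 8531, 8511 and 8668 CPM under KO and 6169.6, 4942 and 5714 CPM under WT, a change of 0.61 ± 0.07 (edgeR, adjusted p = 1.08e-05). Cd74 had 4739.7, 4227 and 4421 CPM under KO and 3236, 3113 and 3223 CPM under WT, a change of 0.48 ± 0.06 (edgeR, adjusted p = 3.17e-05). The groups did not overlap for any of these, and WT replicate 2 was the lowest library for all 3. H2-Aa, at 732 ± 11.2 CPM under KO and 557 ± 27.7 CPM under WT, changed by 0.39 ± 0.07 (edgeR, adjusted p = 0.000284).

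All 3 H2-DM genes were higher under KO in tumour B cells as well. H2-DMa changed by 0.43 ± 0.12 (edgeR, adjusted p = 0.00997), H2-DMb1 by 0.27 ± 0.08 (edgeR, adjusted p = 0.0133) and H2-DMb2 by 0.23 ± 0.07 (edgeR, adjusted p = 0.0125). Each of these was no longer called in some alternatives. H2-DMa was 0.34 without tumour B cell KO replicate 3 (adjusted p = 0.0573), H2-DMb1 was 0.24 without tumour B cell KO replicate 2 (adjusted p = 0.0545) and 0.25 without tumour B cell WT replicate 1 (adjusted p = 0.0581), and H2-DMb2 was 0.16 with upper-quartile scaling (adjusted p = 0.0661), 0.21 without tumour B cell KO replicate 3 (adjusted p = 0.0628) and 0.20 without tumour B cell WT replicate 3 (adjusted p = 0.0654), all by edgeR. The H2-O chains were not called, at 0.27 ± 0.12 for H2-Oa (edgeR, adjusted p = 0.101) and -0.10 ± 0.07 for H2-Ob (edgeR, adjusted p = 0.277). Ciita, at 329.7, 371 and 367 CPM under KO and 353, 367 and 336 CPM under WT, overlapped between labels and was not called, at 0.01 ± 0.08 (edgeR, adjusted p = 0.901). Beside these, melanoma markers were lower for 9 of 9 tested (10 listed), at 40.6 to 43.3 CPM under KO and 730.3 to 869.8 CPM under WT, and macrophage and monocyte markers lower for 10 of 11 tested (12 listed), at 84.4 to 97.3 CPM under KO and 272 to 292 CPM under WT. T cell markers were higher for 7 of 8, at 128 to 137 CPM under KO and 21.4 to 23.7 CPM under WT. Their part in the class II levels was not tested.

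Lymph node B cells differed little between labels. Of the 10 genes, 3 were higher and 1 lower under KO, where 11.0% of the 13608 genes tested were called higher and 10.1% lower. H2-Ab1 had 8409, 8203 and 8313 CPM under KO and 6937, 6278 and 6618 CPM under WT, a change of 0.33 ± 0.04 (edgeR, adjusted p = 3.23e-08). H2-Eb1, at 2509, 2215 and 2298 CPM under KO and 2047, 1908 and 1927 CPM under WT, changed by 0.26 ± 0.04 (edgeR, adjusted p = 5.20e-05), and Cd74, at 4520.2, 4404 and 4536 CPM under KO and 3922, 3707 and 3719 CPM under WT, by 0.25 ± 0.04 (edgeR, adjusted p = 4.49e-06). Ciita was lower, at 664, 655 and 634 CPM under KO and 817, 804 and 783 CPM under WT, a change of -0.30 ± 0.04 (edgeR, adjusted p = 2.71e-06). For all 4 genes every library labelled KO lay on one side of every library labelled WT. The other 6 genes had differences of -0.08 to 0.11 and were not called. T cell markers were lower for 5 of 8 in these libraries, at 30.9 to 33.8 CPM under KO and 54.4 to 64.3 CPM under WT, and their part in the class II levels was not tested.

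The difference between labels was larger in tumour than in lymph node B cells for 7 of the 10 genes and smaller for 0, by an interaction term over the 12 B cell libraries, where 12.4% of the 14737 genes tested were called higher and 8.55% lower. The tumour minus lymph node difference was 0.44 ± 0.10 (edgeR, adjusted p = 0.0037) for H2-Eb1, 0.32 ± 0.09 (edgeR, adjusted p = 0.0164) for H2-DMb1 and 0.32 ± 0.07 (edgeR, adjusted p = 0.00224) for H2-Aa. It was 0.30 ± 0.08 (edgeR, adjusted p = 0.0129) for Ciita, 0.27 ± 0.08 (edgeR, adjusted p = 0.0122) for H2-Ab1, 0.25 ± 0.07 (edgeR, adjusted p = 0.0159) for H2-DMb2 and 0.23 ± 0.07 (edgeR, adjusted p = 0.0155) for Cd74. For Ciita that joins a lower level under KO in lymph node with a difference near 0 in tumour. Some of these calls were lost in alternatives by edgeR, where H2-DMb2 was 0.20 with upper-quartile scaling (adjusted p = 0.0638) and 0.27 in the fit over all 24 libraries (adjusted p = 0.0713), Cd74 was 0.17 with upper-quartile scaling (adjusted p = 0.0678) and H2-DMb1 was 0.30 without lymph node B cell WT replicate 1 (adjusted p = 0.0521). H2-DMa, H2-Oa and H2-Ob were not called, at 0.31 ± 0.14, 0.34 ± 0.14 and -0.09 ± 0.08.

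Between tissues, WT-labelled Tregs gave a mixed picture, with 4 of the 10 genes higher and 2 lower in tumour, where 21.4% of the 14504 genes tested were called higher and 19.9% lower. H2-Ab1, at 131, 144 and 128 CPM in tumour and 95.4, 98.2 and 101 CPM in lymph node, changed by 0.45 ± 0.06 (edgeR, adjusted p = 3.52e-07), and H2-Eb1 by 0.40 ± 0.10 (edgeR, adjusted p = 0.00145). H2-DMb1, at 5.05, 6.28 and 7.44 CPM in tumour and 3.33, 2.45 and 1.91 CPM in lymph node, changed by 1.29 ± 0.28 (edgeR, adjusted p = 0.000234). Its paralog H2-DMb2 went the other way, at 2.43, 1.75 and 2.92 CPM in tumour and 5.08, 6.80 and 4.74 CPM in lymph node, a change of -1.22 ± 0.28 (edgeR, adjusted p = 0.000669). Summed, both paralogs differed by 0.09 ± 0.19 and were not called (edgeR, adjusted p = 0.742). H2-Ob was lower as well, at 1.26, 3.14 and 1.69 CPM in tumour and 9.25, 6.95 and 9.21 CPM in lymph node, a change of -2.06 ± 0.28 (edgeR, adjusted p = 1.91e-07). Beside these, B cell markers were lower for all 11 tested of 14, at 40.2 to 47.6 CPM in tumour and 112 to 121 CPM in lymph node, and dendritic cell markers higher for 3 of 6 tested (9 listed), at 26.8 to 33.8 CPM in tumour and 10.4 to 13.7 CPM in lymph node. Melanoma markers were higher for all 10, at 2779.7 to 2966 CPM in tumour and 23.9 to 84.9 CPM in lymph node, and CD8 T and NK cell markers for all 3 tested of 5, at 22.6 to 27.7 CPM in tumour and 12.7 to 15.4 CPM in lymph node. Stromal and endothelial markers were lower for all 6, at 75.3 to 84.7 CPM in tumour and 214 to 247 CPM in lymph node. The part of cells other than B cells in the class II levels was not tested. For the 2 genes lower in tumour, the level that the B cell share would bring differed between tissues. It was 1.01 ± 0.143 CPM in tumour and 7.69 ± 1.11 CPM in lymph node for H2-DMb2. For H2-Ob it was 0.669 ± 0.0945 CPM in tumour and 4.42 ± 0.637 CPM in lymph node. Cd74 passed narrowly at 0.23 ± 0.08 (edgeR, adjusted p = 0.0236). It missed at 0.23 in DESeq2 (adjusted p = 0.0896), 0.14 on leaving out tumour Treg WT replicate 3 (adjusted p = 0.255), 0.16 on leaving out lymph node Treg WT replicate 1 (adjusted p = 0.153) and 0.18 on leaving out lymph node Treg WT replicate 2 (adjusted p = 0.149). H2-Aa, H2-DMa, H2-Oa and Ciita were not called, at 0.32 ± 0.20, -0.28 ± 0.29, -0.06 ± 0.33 and -0.20 ± 0.25, although H2-Aa passed as higher in the fit over all 24 libraries, at 0.32 (edgeR, adjusted p = 0.0386).

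In WT-labelled B cells 8 of the 10 genes were lower and 0 higher in tumour, where 14.3% of the 13770 genes tested were called lower and 15.7% higher. Ciita led, at 353, 367 and 336 CPM in tumour and 817, 804 and 783 CPM in lymph node, a change of -1.12 ± 0.05 (edgeR, adjusted p = 1.32e-11). No tumour library came near a lymph node library. Changes of the other genes were small, with H2-Oa at -0.41 ± 0.10 (edgeR, adjusted p = 0.00535), H2-DMb1 at -0.24 ± 0.06 (edgeR, adjusted p = 0.00845), H2-Aa at -0.22 ± 0.05 (edgeR, adjusted p = 0.00216), H2-DMb2 at -0.20 ± 0.05 (edgeR, adjusted p = 0.00442) and Cd74 at -0.18 ± 0.04 (edgeR, adjusted p = 0.0037). H2-DMa, at -0.29 ± 0.09 (edgeR, adjusted p = 0.0253), was not called without tumour B cell WT replicate 1, without any 1 of the 3 lymph node B cell WT libraries, in the fit over all 24 libraries or in DESeq2, at -0.31 to -0.27 with adjusted p of 0.0581 to 0.0873. H2-Ab1, at -0.17 ± 0.06 (edgeR, adjusted p = 0.0292), was no longer called in edgeR at -0.14 without lymph node B cell WT replicate 1 (adjusted p = 0.161) and -0.18 without lymph node B cell WT replicate 3 (adjusted p = 0.123). H2-Eb1 was not called, at -0.09 ± 0.06, nor was H2-Ob, which averaged 365 ± 8.09 CPM in tumour and 384 ± 8.51 CPM in lymph node. The median change of the 10 genes was -0.21. B cell markers had a median change of -0.25, with 7 of the 14 lower and 2 higher in tumour. They summed to 4673 to 4781 CPM in tumour and 6369 to 6525 CPM in lymph node. Macrophage and monocyte markers were higher in these tumour B cells for all 11 tested of 12, at 272 to 292 CPM in tumour and 28.5 to 37.9 CPM in lymph node, and plasma cell markers for all 4 tested of 5, at 831 to 1049 CPM in tumour and 211 to 231 CPM in lymph node. Melanoma markers were higher for all 9 tested of 10, with sums of 802 ± 69.8 CPM in tumour and 18.8 ± 2.71 CPM in lymph node. T cell markers were lower for 6 of the 7 tested (8 listed), at 21.4 to 23.7 CPM in tumour and 54.4 to 64.3 CPM in lymph node, and stromal and endothelial markers for all 4 tested of 6, at 189 to 199.7 CPM in tumour and 243 to 262 CPM in lymph node. The part of these cell types in the class II levels was not tested.

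Across the 8 groups, the order of mean levels was shared in part. All 10 genes had the 4 B cell groups above the 4 Treg groups, with no overlap between the lowest B cell group and the highest Treg group. Among B cells the WT-labelled tumour group was lowest for 9 of the 10 genes and the KO-labelled one for H2-Ob. H2-Ab1 did not differ beyond its spread between tumour and lymph node Tregs labelled KO, at 665 ± 23.0 CPM in tumour and 634 ± 11.8 CPM in lymph node, which overlapped, and Cd74 and H2-Aa overlapped between tumour and lymph node Tregs labelled WT. Among B cells, Ciita was lower in tumour, at 356 ± 22.7 CPM under KO and 352 ± 15.7 CPM under WT, which overlapped. In lymph node it was at 651 ± 15.3 CPM under KO and 801 ± 17.5 CPM under WT, without overlap. The pathway as a whole took 0.117 ± 0.00415% of counts in tumour Tregs labelled KO and 0.0304 ± 0.00123% in those labelled WT, 0.130 ± 0.00142% and 0.0247 ± 0.00159% in lymph node Tregs labelled KO and WT, and 1.34 to 1.71% in B cell groups.

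The genes known to regulate class II transcription were read from a list of 18, against the shares of all genes called that are given above for each comparison. Each change named as higher or lower from this list and the lists after it passed edgeR's test at an adjusted p under 0.05. In tumour Tregs 11 of the 18 were higher and 4 lower under KO, with a median change of 0.47. Lymph node Tregs had 7 higher and 2 lower, with a median of 0.11. Tumour B cells had 10 higher and 1 lower, with a median of 0.33, and lymph node B cells 5 higher and 4 lower, with a median of 0.05. Irf1, which drives the interferon-responsive promoter of Ciita, had the smallest p of the list in tumour Tregs. It was at 417 ± 11.4 CPM under KO and 142 ± 4.99 CPM under WT, a change of 1.56 ± 0.05 (edgeR, adjusted p = 2.18e-25). Its change was 0.79 ± 0.05 in lymph node Tregs. Tumour B cells showed 2.02 ± 0.08 and lymph node B cells 0.56 ± 0.07. The rise was larger in tumour in both cell types, with interaction terms of 0.75 ± 0.07 (edgeR, adjusted p = 4.47e-11) in Tregs and 1.44 ± 0.10 (edgeR, adjusted p = 6.00e-10) in B cells. All 4 of these changes passed (edgeR, largest adjusted p = 2.20e-07), whereas Ciita changed by 0.01 ± 0.08 in tumour B cells and -0.30 ± 0.04 in lymph node B cells. Pax5, a B lineage factor also used as a B cell marker here, was higher by 4.35 ± 0.30 in tumour Tregs labelled KO and by 2.68 ± 0.09 in lymph node Tregs labelled KO. Jak2, a kinase of the interferon gamma receptor, was higher in tumour Tregs by 0.96 ± 0.05. Ifngr1, the ligand-binding chain of that receptor, was higher in tumour B cells by 0.95 ± 0.09 and in lymph node B cells by 0.47 ± 0.08. Irf8, a factor of B cells and dendritic cells, was lower in lymph node B cells, at -0.39 ± 0.05, and higher in lymph node Tregs by 0.999 ± 0.067 and in tumour Tregs by 0.55 ± 0.06. Of the factors that bind class II promoters, the RFX subunit Rfxap was higher in tumour Tregs by 0.73 ± 0.07 and in lymph node B cells by 0.72 ± 0.08. The NF-Y subunit Nfyb was lower in Tregs, at -0.48 ± 0.06 in tumour and -0.32 ± 0.05 in lymph node. Creb1, a further factor of these promoters, was lower in tumour Tregs, at -0.45 ± 0.06, and in tumour B cells, at -0.48 ± 0.08.

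A further list held 12 genes of class II processing and turnover. Of the 10 tested in tumour Tregs, 4 were higher and 2 lower under KO, and of the 11 tested in lymph node Tregs, 5 were higher and 1 lower. Of the 11 tested in tumour B cells, 3 were higher and 4 lower, and of the 10 tested in lymph node B cells, 2 were higher and 3 lower. Cd83, which protects surface class II from degradation, was higher in tumour Tregs, at 92.9 ± 5.14 CPM under KO and 38.2 ± 1.82 CPM under WT, a change of 1.28 ± 0.08 (edgeR, adjusted p = 8.08e-17). In tumour B cells Cd83 had 536 ± 7.20 CPM under KO and 258 ± 27.0 CPM under WT, a change of 1.05 ± 0.08 (edgeR, adjusted p = 1.21e-07), and its tumour minus lymph node difference was 1.16 ± 0.09 (edgeR, adjusted p = 3.13e-09). Cd83 was not called in the B cells of lymph node, with 379 ± 3.61 CPM under KO and 412 ± 14.1 CPM under WT (-0.12 ± 0.05, edgeR, adjusted p = 0.0608). Marchf1, the ubiquitin ligase that removes class II from the surface and that Cd83 opposes, was lower under KO in B cells of both tissues, at 114 ± 5.44 CPM under KO and 182 ± 16.3 CPM under WT in tumour, a change of -0.68 ± 0.08 (edgeR, adjusted p = 1.91e-05), and in lymph node -0.37 ± 0.05 (edgeR, adjusted p = 4.45e-06). Marchf1 was higher under KO in lymph node Tregs, by 2.43 ± 0.26, at 6.74 ± 0.194 CPM under KO and 1.23 ± 0.211 CPM under WT. H2-Eb2, a further class II beta chain, was higher under KO by 2.53 ± 0.24 in lymph node Tregs, at 8.91 ± 1.43 CPM under KO and 1.53 ± 0.348 CPM under WT. Lymph node B cells had 154 CPM of Marchf1 under KO and 200 CPM under WT, and 180 and 149 CPM of H2-Eb2. The B cell share there, at a mean of 5.45% under KO and 1.15% under WT, would bring at least the Treg levels of both genes. In B cells H2-Eb2 was higher by 0.51 ± 0.09 in tumour and 0.27 ± 0.05 in lymph node. Ifi30, the endosomal thiol reductase, was higher in tumour Tregs by 0.78 ± 0.14 and in tumour B cells by 0.52 ± 0.10, and lower in lymph node B cells, at -0.33 ± 0.06. Marchf8, a ligase related to Marchf1, was lower in tumour Tregs, at 0.779 ± 0.279 CPM under KO and 3.10 ± 0.938 CPM under WT, a change of -1.98 ± 0.45 (edgeR, adjusted p = 0.000269). The protease Ctss, which trims Cd74, was higher in lymph node B cells by 0.24 ± 0.05.

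Among 6 costimulatory ligands and receptors of presenting cells, 3 were higher and 1 lower under KO in tumour Tregs, and 3 were higher and 0 lower in lymph node Tregs. Tumour B cells had 2 higher and 1 lower. Of the 5 tested in lymph node B cells, 3 were higher and 1 lower. Cd40, the receptor through which T cells activate presenting cells, averaged 4.10 ± 0.686 CPM under KO and 1.20 ± 0.107 CPM under WT in tumour Tregs, a change of 1.77 ± 0.36 (edgeR, adjusted p = 7.75e-05). It changed by 1.37 ± 0.26 (edgeR, adjusted p = 0.000169) in lymph node Tregs. Cd86, a ligand of Cd28, was higher under KO in tumour Tregs by 0.46 ± 0.18, in tumour B cells by 0.63 ± 0.11 and in lymph node B cells by 0.38 ± 0.11. Icosl, the ligand of Icos, was higher in tumour by 0.91 ± 0.26 and in lymph node by 1.13 ± 0.21 among Tregs. In B cells it changed by -0.58 ± 0.08 in tumour and -0.34 ± 0.06 in lymph node. Under KO and WT, Icosl averaged 6.92 and 3.11 CPM in lymph node Tregs and 89.5 and 113 CPM in lymph node B cells. Cd40 averaged 5.69 and 2.16 CPM in these Tregs and 65.1 and 55.3 CPM in these B cells. The mean B cell share was 5.45% under KO and 1.15% under WT in lymph node Tregs, and 1.91% and 0.183% in tumour Tregs. Its part in the Treg levels of both genes was not tested. Cd274, the inhibitory ligand PD-L1, was higher under KO in lymph node Tregs by 0.24 ± 0.05, and by 0.52 ± 0.07 in tumour B cells.

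Between tissues in WT-labelled B cells, 5 of the 17 regulators tested were higher and 6 lower in tumour. Prdm1, the repressor that drives plasma cell differentiation and silences Ciita, was higher, at 8.82 ± 1.11 CPM in tumour and 2.55 ± 0.569 CPM in lymph node, a change of 1.85 ± 0.26 (edgeR, adjusted p = 2.29e-05). Pax5, which Prdm1 also represses, was lower at -0.31 ± 0.05, and Irf8 was lower at -0.69 ± 0.05. Between labels, Prdm1 was lower under KO in lymph node B cells, by -1.57 ± 0.48. Its levels there were low, at 0.860 ± 0.780 CPM under KO and 2.55 ± 0.569 CPM under WT. Ciita was lower under KO in these libraries too, at -0.30 ± 0.04. In WT-labelled Tregs, 6 of 18 regulators were higher and 5 lower in tumour, among them Ifngr1, higher by 1.74 ± 0.05, and Pax5, a B cell gene whose level moves with the B cell share given above, lower at -4.37 ± 0.28.

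Genes whose levels over the 8 groups most resembled the mean of H2-Aa, H2-Ab1, H2-Eb1 and Cd74 were ranked among 9708 genes with at least 10 CPM in a group, by the root mean square difference of centred log2(CPM + 1) group means. Outside the 10 genes, Plcg2, a phospholipase of B cell receptor signalling, was nearest at 0.253, followed by Wdfy4 at 0.281, Mir5107, whose exon lies in Cd74, at 0.339, Cecr2 at 0.375 and Iglc2, an immunoglobulin light chain constant region, at 0.408. H2-Eb1, H2-Ab1, Cd74 and H2-Aa, which make up the mean, were at 0.123, 0.135, 0.157 and 0.250. The 8 points share the B cell to Treg contrast, which spans most of the range of each of these genes. Plcg2 averaged 35.4 CPM under KO and 6.77 CPM under WT in tumour Tregs, and 52.8 CPM under KO and 8.75 CPM under WT in lymph node Tregs.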

How the data were processed

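Read counts for each gene in 24 libraries were deposited by the authors as 1 table of raw counts. Per the submitters' processing notes, fastp 0.23.4, STAR 2.5.3a and featureCounts were used, and the builds GRCh38 and GRCm39 are named; gene positions in the table were read as GRCm39. How strand and multi-mapping reads were handled is not given in the sources used here. Of nonzero counts up to 10, 69.7 to 75.8% were even in each library, and the cause was not tested.

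Each pairwise comparison was fitted on its 6 libraries, and each tissue interaction on 12, with edgeR 4.0.16 in R 4.3.3: filterByExpr, TMM scaling, the quasi-likelihood F test and Benjamini-Hochberg adjustment over all genes tested. A gene was called at an adjusted p under 0.05. Fold changes are log2, KO over WT labels or tumour over lymph node, ± standard error. The model was tested on simulated data. Levels are CPM scaled by TMM over the 24 libraries, given per library in replicate order or as mean ± SD. The text names the 10 class II genes, up to 3 genes of each list in each direction by smallest p within a comparison, with their values elsewhere, and the 5 genes most alike over groups. The members and lists were chosen with earlier results of these data known. Rfxap and Irf8 in tumour Tregs were added after their values were seen. Some genes that the rule names are not reported here. RLE and upper-quartile scaling, no filter, DESeq2 1.42.0, a replicate block, a fit over all 24 libraries, and libraries left out were tried. Replicate numbers were not taken to pair samples. B cell markers entered the share at 20 CPM or more in B cells.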

Additional observations from a re-analysis of the deposited data

Results flagged for a closer look

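The difference between labels itself differed between tumour and lymph node in both cell types. In Tregs the tumour difference minus the lymph node difference, on the log2 scale, was -1.32 for H2-Aa, -1.38 for H2-Oa, -1.16 for Ciita, -0.76 for H2-DMb1, -0.54 for Cd74, -0.37 for H2-Ab1 and -0.25 for H2-Eb1, so that each was less raised by the KO label in tumour than in lymph node, or, for H2-Oa, not raised there. In B cells it was 0.44 for H2-Eb1, 0.32 for H2-Aa, 0.32 for H2-DMb1, 0.30 for Ciita, 0.27 for H2-Ab1, 0.25 for H2-DMb2 and 0.23 for Cd74. All 14 passed in edgeR's interaction test at an adjusted p under 0.05. The sign of this difference was negative in Tregs and positive in B cells for H2-Aa, H2-Ab1, H2-Eb1, H2-DMb1, Cd74 and Ciita; the difference between the cell types was not tested. No explanation was tested.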

How the results depend on the processing

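Over all alternatives run, 1103 of the log2 changes of single genes kept their direction and their side of the threshold, 57 lost a call, 2 gained one and 12 reversed. Counts of called genes stayed within 1.5 times the reported one in 118 of 119 alternatives. The exception was the Treg interaction, which ranged from 4 to 7 genes over the fits that leave out 1 library, the lowest without tumour Treg WT replicate 3. All reversals concerned differences that were not called. Ciita in tumour B cells was -0.0580 with upper-quartile scaling and -0.0348 to 0.122 with libraries left out. H2-Ob ran from -0.0271 to 0.00836 between labels in lymph node B cells and from -0.0189 to 0.00943 between tissues in WT B cells. Between tissues in WT Tregs, H2-Oa ran from -0.271 to 0.0768 and Ciita from -0.438 to 0.00172. The cause was not tested.

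The B cell share moved most. With 5 core markers it was 1.63% in tumour Tregs labelled KO and 0.0718% in those labelled WT, and 5.13% and 0.947% in lymph node Tregs labelled KO and WT. Weighted by level, it was 2.19% under KO and 0.935% under WT in tumour, and 6.15% under KO and 1.83% under WT in lymph node. Against B cells of the other tissue it was 1.42% in tumour Tregs labelled KO, and 7.58% and 1.54% in lymph node Tregs labelled KO and WT. With unscaled CPM it was 2.06% in tumour Tregs labelled KO. Of the ratios to the level brought, 212 alternatives stayed within 1 SD and 108 moved further, H2-Ab1 in tumour Tregs labelled WT from 2.58 to 47.3.

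Samples of the same replicate number did not deviate together, with correlations of -0.05 to 0.09. With a replicate block, 9 genes were called in lymph node Tregs in place of 10, 4 in lymph node B cells and 9 in tumour Tregs, and no count moved by over 1.5 times. H2-Oa, H2-DMa and H2-Ob had few reads in Tregs, except for H2-Ob in lymph node Tregs labelled KO, with 273 to 349 per library. H2-DMb2 had 19 to 31 reads in tumour Tregs labelled WT, and H2-DMb1 27 to 40 in lymph node Tregs labelled WT. Such counts limit the precision of these genes and of the ratio of H2-DMb2 to H2-DMb1.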
